A study of Homo sapiens with 54 samples.

Results

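The late step of a 3D culture of human macrophages was followed here, from day 19 to day 23 without FBS. It rests on 6 bulk RNA libraries, chosen by their titles: 3 of day 23 and 3 of day 19, of 54 samples in the series, 32 of which are bulk RNA. All of these cells derive from H1, a human embryonic stem cell line, so they stand for 1 genetic background. The labels call the cell type macrophage and the culture format 3D, and name no treatment of these 6. The series title adds that the 3D format is a porous microscaffold meant for making macrophages in large numbers. FBS (fetal bovine serum) appears only in the titles of a parallel pair of groups, 3 libraries of day 23 with FBS and 3 of day 19 with FBS, which serve as a comparison. Libraries of day 16 (3) and day 12 (4) of the 3D culture without FBS are used for levels only. From which event the days are counted is not stated in the labels. Nothing in the labels says that replicates came from separate cultures, so the p-values measure the spread between these libraries, which may be technical.

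Macrophages that settle in a tissue are recognised by a set of genes, not all of which are confined to them. LYVE1, a hyaluronan receptor, FOLR2, a folate receptor, F13A1, a clotting factor subunit, and MRC1, the mannose receptor, are among those used. Scavenger receptors such as MARCO and CD36 take up modified lipoproteins, dead cells and microbes. Some resident macrophages keep their numbers by division, for which S phase genes copy the genome and G2/M genes part the chromosomes. Monocytes newly turned macrophages are better known for the alarmins S100A8 and S100A9 and for chemokines that draw in other leukocytes.

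Values are TPM, a level per transcript length scaled to the same total in each library, so levels of different genes in 1 library can be set side by side. Changes are differences of log2(TPM + 1), day 23 minus day 19, tested with limma over all genes and adjusted by the Benjamini-Hochberg method with a threshold of 0.05. A gene is said to have risen or fallen if it passed that threshold. Adding 1 makes the change of low genes look smaller than it was. In a bulk library, fewer cells of a type and less RNA per cell cannot be told apart. Of 125 genes named with a change, 110 were called, and 88 of those were called alike under each of 17 alternative analyses. The exceptions are marked where each gene is described, though not every alternative that ended a call is listed there.

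Correlations between libraries of 1 day were 0.900 to 0.931, above the 0.810 to 0.874 between days. Between 11862 and 11953 genes reached 1 TPM at day 23, and 12009 to 12417 at day 19. Ribosomal protein genes held 11.1 to 12% of TPM at day 23 and 8.09 to 9.22% at day 19. Day 19 replicate 1 stood apart. The 3 genes FP236383.2, FP236383.3 and FP671120.3, which bear names of genomic clones, held 12.8% of TPM there and 20.2 and 21.3% in the other day 19 libraries, mitochondrially encoded genes 7.97% against 6.58 and 6.43%, and protein-coding genes 76.4% against 70.6 and 69.6%. Its median-ratio factor was 1.21, against 1.03 and 0.976, and its library weight in limma, 0.529, was the lowest of the 6. CLC, an eosinophil and basophil granule gene, was at 638.89 TPM there and at 5.75 and 5.97 TPM in the other day 19 libraries, with 58.11, 103.41 and 60.25 TPM at day 23. The 20 macrophage markers were all measured and summed to 13612.5 to 14012.5 TPM at day 23 and 18177.6 to 20050.3 TPM at day 19, with 0 higher (2 at an unadjusted p under 0.05), 9 lower and 11 not called in limma. Without day 19 replicate 2 the lower count was 5, and without day 19 replicate 3 the higher count was 1. Over all genes 6.45% rose and 9.03% fell, and 17 of the 20 markers had changes below 0. The markers were thus measured on both days, at a lower summed level on day 23. Whether the identity of the cells changed was not tested.

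Of 12689 genes that averaged 1 TPM or more in these 6 libraries, 819 (6.45%) rose and 1146 (9.03%) fell, 15.5% in either direction, the shares against which the counts of each list are to be read. The median change over all genes was -0.15 on the log2 scale. Scaling each library by its median ratio brought that median to 0.01, a shift against which every change below can be read, and turned the split of calls from 41.7% higher to 54.6% higher (1054 or 8.31% of genes higher, 877 or 6.91% lower). In 13.8% of genes all 3 day 23 libraries lay above all 3 of day 19, and in 21.7% all lay below. The number of calls moved little without day 19 replicate 3 (811 higher and 1099 lower) and fell without any 1 of the other 5 libraries. Calls higher were 606 without day 19 replicate 1, 439 without day 19 replicate 2, 489 without day 23 replicate 1, 599 without day 23 replicate 2 and 498 without day 23 replicate 3. Calls lower were 588 without day 19 replicate 1, 456 without day 19 replicate 2, 710 without day 23 replicate 1, 718 without day 23 replicate 2 and 615 without day 23 replicate 3.

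Many genes of resident macrophages fell. Of 40 members of the resident list, 36 were tested, and 20 fell, 2 rose and 14 were not called, where 9.03% of all genes fell. CD5L, CCL18, SALL1 and SPIC were listed at 0 in all 6 libraries. The median change of the tested members was -1.13, beside -0.15 for all genes, and after median-ratio scaling 19 still fell. Leaving out day 19 replicate 2 left 12 lower, and the other 5 omissions left 15 to 21. The count of 2 higher became 3 and 4 without day 19 replicate 2 and 3, and 1 without any 1 of the day 23 libraries. Members that passed the filter only through day 19 had to be lower at day 23, so the count describes the list and is no test of it. In every list, members that passed only through day 23, such as CCL7, CHIT1 and FN1 below, likewise had to be higher there. The counts of the other lists are therefore descriptions too.

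LYVE1 (ENSG00000133800, GRCh38.p14 chr11:10556966-10568665) had the steepest fall of the list. It was at 1.1, 3.75 and 1.45 TPM at day 23, against 157.36, 109.08 and 91.1 TPM at day 19 (change -5.34 ± 0.37 SE, adjusted p = 7.32e-05, n = 3 libraries each in limma). The groups lay far apart, with the highest day 23 library well under the lowest day 19 library. F13A1 (ENSG00000124491, chr6:6144084-6320662), the catalytic subunit of clotting factor XIII, was at 4.77, 6.58 and 7.74 TPM at day 23, against 227.94, 155.47 and 146.19 TPM at day 19 (-4.58 ± 0.26, adjusted p = 2.74e-05). All 3 day 23 libraries again sat below all 3 of day 19. SELENOP, a secreted selenium carrier, was at 12.88, 13.78 and 15.68 TPM at day 23, against 326.49, 170.43 and 117.79 TPM at day 19 (-3.64 ± 0.34, adjusted p = 0.000387). The day 23 libraries were close to each other and the day 19 libraries spread widely, without overlap. IGF1, a growth factor, was at 7.45, 6.33 and 0.77 TPM at day 23, against 57.89, 75.85 and 63.64 TPM at day 19 (-3.79 ± 0.54, adjusted p = 0.0029). Its size depended on day 23 replicate 3, without which the change was -3.08.

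FOLR2 had 111.99, 98.03 and 100.73 TPM at day 23, against 805.16, 602.4 and 582.4 TPM at day 19 (-2.65 ± 0.16, adjusted p = 3.42e-05). RNASE1, a secreted ribonuclease and one of the most abundant of these genes, had 472.89, 434.36 and 415.9 TPM at day 23, against 2198.67, 1952.64 and 2382.32 TPM at day 19 (-2.30 ± 0.11, adjusted p = 1.39e-05). Neither gene overlapped between the days. HPGDS, the prostaglandin D synthase of blood cells, fell to a mean of 12.2 ± 3.87 TPM at day 23, against 101 ± 26 TPM at day 19 (SD, n = 3 each). MRC1 averaged 16.6 ± 1.55 TPM at day 23 and 60.9 ± 17.8 TPM at day 19, a change of -1.78 (limma adjusted p = 0.00306). AXL, a receptor for apoptotic cells, fell by 2.20 to 2.04 ± 0.25 TPM at day 23, against 13.1 ± 2.42 TPM at day 19. MS4A4A, a membrane protein of tissue macrophages, fell by 2.58, and its day 23 mean was 0.973 TPM, against 11 TPM at day 19. TIMD4, a phosphatidylserine receptor, was listed at 0 in all 3 day 23 libraries, against 2.98, 1.63 and 3.76 TPM at day 19. Its adjusted p of 0.0359 rose to between 0.0696 and 0.117 when day 19 replicate 1 or 2 or any 1 of the day 23 libraries was left out.

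**Figure D1:**
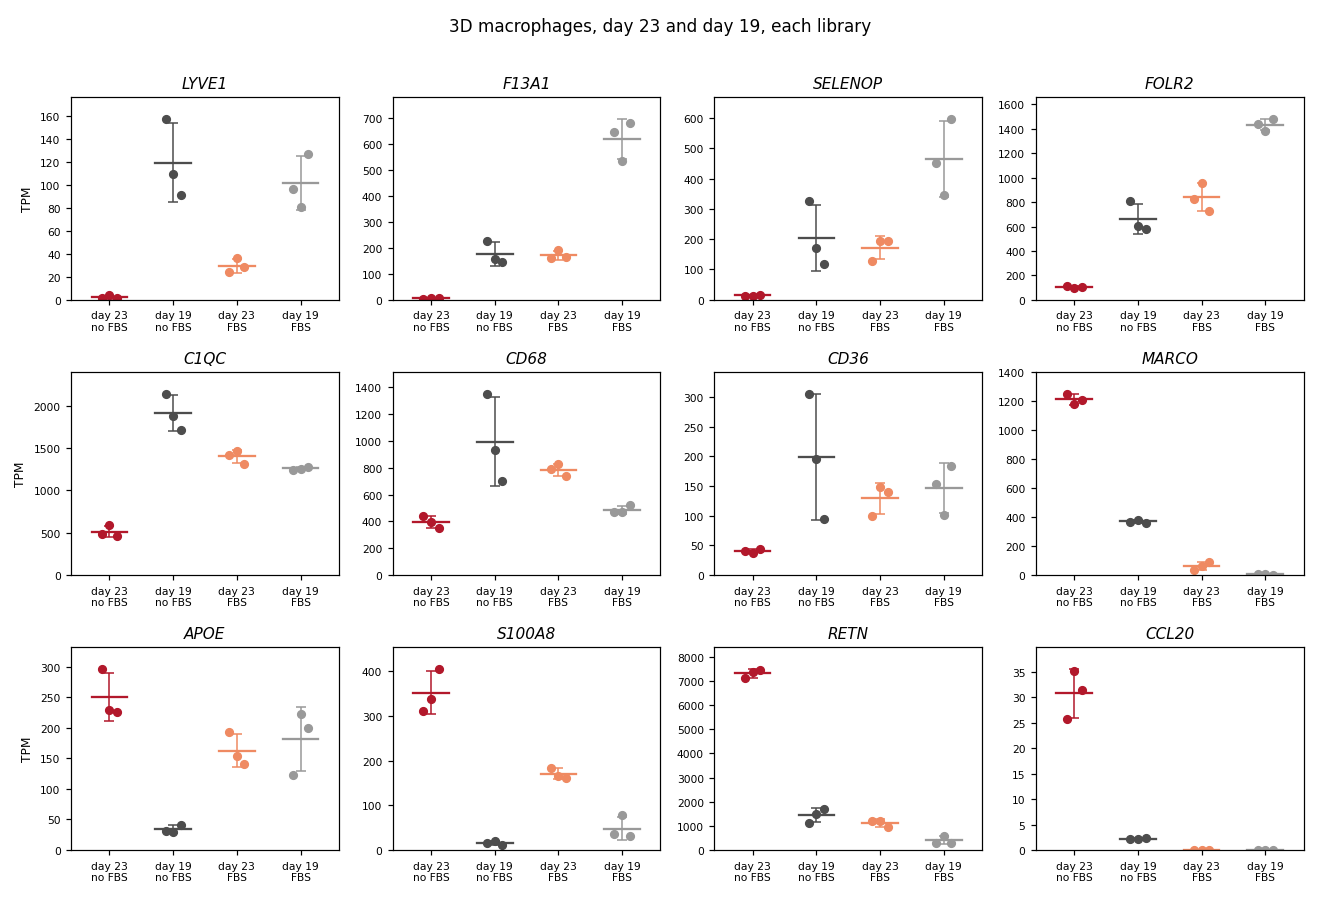
TPM of 12 genes (vertical axes, linear from 0, one scale per gene) in each library: day 23 without FBS, day 19 without FBS, day 23 with FBS and day 19 with FBS. Dots are libraries, lines the means of 3 and bars the SD. LYVE1, F13A1, SELENOP and FOLR2 lie near the floor in the day 23 libraries without FBS, while S100A8, RETN, MARCO and APOE are higher there than at day 19 without FBS.

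Other genes often counted with tissue macrophages did not fall, as the plot of 12 genes by library shows for APOE. APOE, a lipid carrier, was at 296.51, 229.08 and 226.34 TPM at day 23, against 30.83, 29.89 and 41.79 TPM at day 19 (2.84 ± 0.20, adjusted p = 8.24e-05). CCL13, a chemokine, averaged 444 ± 23.8 TPM at day 23 and 177 ± 83.7 TPM at day 19 (1.46, adjusted p = 0.0235), and its adjusted p was 0.0633 to 0.0741 without any 1 of the day 23 libraries. CD163, the haemoglobin scavenger receptor, averaged 408 ± 8.72 TPM at day 23 and 315 ± 67.3 TPM at day 19 and was not called (0.39, adjusted p = 0.127). STAB1, a scavenger receptor of endothelium and macrophages, was not called either (0.40, adjusted p = 0.19), and its libraries overlapped. The transcription factor MAF, tied to resident identity, had a change of -0.62 and was not called (adjusted p = 0.0753).

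C1q, the first component of complement, is made of 3 chains that macrophages secrete, and the chains did not move by like amounts. C1QC was at 485.09, 591 and 460.2 TPM at day 23, against 2139.69, 1872.65 and 1716.37 TPM at day 19 (-1.90 ± 0.13, adjusted p = 6.85e-05). C1QB was at 398.54, 381.33 and 378 TPM at day 23, against 1077.77, 956.35 and 879.86 TPM at day 19 (-1.33 ± 0.11, adjusted p = 0.000223). C1QA was at 1457.83, 1452.06 and 1418.65 TPM at day 23, against 1824.91, 1802.55 and 1869.44 TPM at day 19 (-0.34 ± 0.08, adjusted p = 0.0172). The small change of C1QA was not called after median-ratio scaling (-0.16, adjusted p = 0.425), nor without day 19 replicate 2 or any 1 of the day 23 libraries (adjusted p 0.0544 to 0.0698). The differences between the chains were not tested. C3, the central complement protein, rose to a mean of 1878 ± 157 TPM at day 23, against 702 ± 113 TPM at day 19 (1.43, adjusted p = 0.000322). CFP, properdin, which stabilises the enzyme that splits C3, averaged 29.1 ± 11.9 TPM at day 23 and 4.21 ± 3.45 TPM at day 19 (2.64, adjusted p = 0.00853). Of 25 complement genes 18 were tested, with 2 higher and 5 lower, beside 6.45% and 9.03% of all genes. The lower count was 2 without day 19 replicate 2, day 23 replicate 1 or day 23 replicate 3, and 3 without day 23 replicate 2.

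Scavenger receptors split. Of 26 members 18 were tested, and 2 rose, 5 fell and 11 were not called, beside 6.45% of all genes higher and 9.03% lower. Their median change was -0.15, the same to 2 decimals as over all genes. STAB2, SCARA5, SCARF2, MEGF10, SSC5D and CD5L were listed at 0 throughout. Without day 19 replicate 2 the lower count was 3, and without day 19 replicate 3 the higher count was 4. MARCO (ENSG00000019169, GRCh38.p14 chr2:118942194-118994660), a receptor for bacteria and particles, was at 1252.09, 1177.66 and 1208.41 TPM at day 23, against 367.11, 382.21 and 358.03 TPM at day 19 (1.71 ± 0.10, adjusted p = 2.74e-05). The libraries of a day were nearly level and the days far apart. SCARB2, a lysosomal membrane protein that carries glucocerebrosidase, averaged 136 ± 16 TPM at day 23 and 41.2 ± 7.84 TPM at day 19 (1.71, adjusted p = 0.0013).

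CD36, a receptor for fatty acids and oxidised lipoprotein, was at 40.03, 37.58 and 44.52 TPM at day 23, against 306.05, 196.57 and 93.98 TPM at day 19 (-2.11 ± 0.37, adjusted p = 0.00685). CD68, a lysosomal sialomucin used as a general macrophage marker, was at 439.76, 391.79 and 351.09 TPM at day 23, against 1352.47, 929.8 and 702.91 TPM at day 19 (-1.29 ± 0.22, adjusted p = 0.00567). In both genes the day 19 libraries spread widely, yet none reached down to a day 23 value. Lectin receptors of low level fell too. CD209 averaged 0.843 ± 0.38 TPM at day 23 and 6.34 ± 1.4 TPM at day 19 (-2.0, adjusted p = 0.0116), with an adjusted p of 0.0631 without day 19 replicate 2. COLEC12 averaged 5.15 ± 1.67 TPM at day 23 and 16 ± 1.22 TPM at day 19 (-1.50, adjusted p = 0.0124), with an adjusted p of 0.0506 without the same library. MSR1, the class A scavenger receptor, was not called (-0.19, adjusted p = 0.622), and its libraries overlapped, with 29.87 to 37.9 TPM at day 23 and 31.86 to 45.07 TPM at day 19. Among 25 genes of efferocytosis, the uptake of dead cells, 20 were tested. Of these 0 rose (also 0 at an unadjusted p under 0.05 in limma) and 5 fell, beside 9.03% of all genes lower. The count of 5 was 2 without day 19 replicate 2 and 3 without day 23 replicate 1 or 2, and the count of 0 was 1 without day 19 replicate 3.

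Genes of division fell in part. Of 64 S phase genes 63 were tested, with 0 higher (1 at an unadjusted p under 0.05 in limma), 14 lower and 49 not called, a median change of -0.81, and 53 below 0, where 9.03% of all genes fell. Of 69 G2/M and mitosis genes 68 were tested, with 0 higher (0 unadjusted), 18 lower and 50 not called, a median change of -0.90, and 62 below 0. These counts were less firm than the medians. Median-ratio scaling left 8 and 10 lower with medians of -0.63 and -0.74, and a replicate block left 6 S phase genes. With 1 library left out, S phase genes lower numbered 7, 4 and 8 (day 19 replicates 1, 2 and 3) and 6, 6 and 9 (day 23 replicates 1, 2 and 3), and G2/M genes lower numbered 11, 6 and 8, and 6, 10 and 10, in the same order. In the fit without day 19 replicate 2, which called 4 of 63 S phase genes lower, 456 of 12708 genes fell. In these fits 0 genes of either list were higher.

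RRM2 (ENSG00000171848, GRCh38.p14 chr2:10122568-10211010), the subunit that limits the making of deoxyribonucleotides, had the largest change of the S phase list. It was at 7.8, 7.1 and 11.12 TPM at day 23, against 112.87, 150.92 and 139.55 TPM at day 19 (-3.82 ± 0.24, adjusted p = 4.9e-05). The days lay far apart. TYMS, which makes thymidylate, was at 17.93, 17.97 and 14.84 TPM at day 23, against 59.76, 57.85 and 53.53 TPM at day 19 (-1.70 ± 0.21, adjusted p = 0.00145). POLE, the leading-strand polymerase, was at 8.45, 14.87 and 11.17 TPM at day 23, against 43.97, 46.5 and 56.08 TPM at day 19 (-2.02 ± 0.26, adjusted p = 0.00199). MCM2, part of the replicative helicase, averaged 1.48 ± 1.35 TPM at day 23 and 9.06 ± 1.45 TPM at day 19 (-2.14, adjusted p = 0.0136), with an adjusted p of 0.0557 without day 19 replicate 1 and 0.0612 without day 19 replicate 2. PCNA, the sliding clamp, averaged 34.9 ± 4.05 TPM at day 23 and 63.1 ± 8.89 TPM at day 19 (-0.83, adjusted p = 0.0261). The call on PCNA ended after scaling (adjusted p = 0.0845), with the replicate block (0.0514), and without day 19 replicate 2 or 3 or any 1 of the day 23 libraries (0.0507 to 0.0832).

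Among G2/M genes, CDK1, the kinase that starts mitosis, was at 9.85, 9.04 and 11.81 TPM at day 23, against 55.77, 25.59 and 28.33 TPM at day 19 (-1.66 ± 0.33, adjusted p = 0.0112). AURKA, a spindle kinase, was at 6.61, 4.95 and 6.16 TPM at day 23, against 18.34, 19.53 and 17.49 TPM at day 19 (-1.50 ± 0.27, adjusted p = 0.00729). AURKB, its relative at the centromere, averaged 21.4 ± 7.99 TPM at day 23 and 70.1 ± 18.1 TPM at day 19 (-1.70, adjusted p = 0.00711). CKS2 and CKS1B, small partners of cyclin-dependent kinases, averaged 42.5 ± 5.34 and 56.9 ± 15.7 TPM at day 23, against 102 ± 7.83 and 125 ± 11.3 TPM at day 19 (-1.25, adjusted p = 0.00328, and -1.15, adjusted p = 0.00963). CKS1B had an adjusted p of 0.052 without day 19 replicate 2. The proliferation markers most often stained did not pass. MKI67 was at 10.36, 9.15 and 15.24 TPM at day 23, against 11.52, 14.04 and 20.31 TPM at day 19 (-0.37, adjusted p = 0.474). TOP2A, the topoisomerase that untangles sister chromatids, was at 69.65, 53.09 and 66.84 TPM at day 23, against 30.4, 55.18 and 111.81 TPM at day 19 (0.13, adjusted p = 0.862), and without day 19 replicate 1 its change was -0.32. Day 19 spread over the whole day 23 range in TOP2A, and MKI67 overlapped too.

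**Figure D2:**
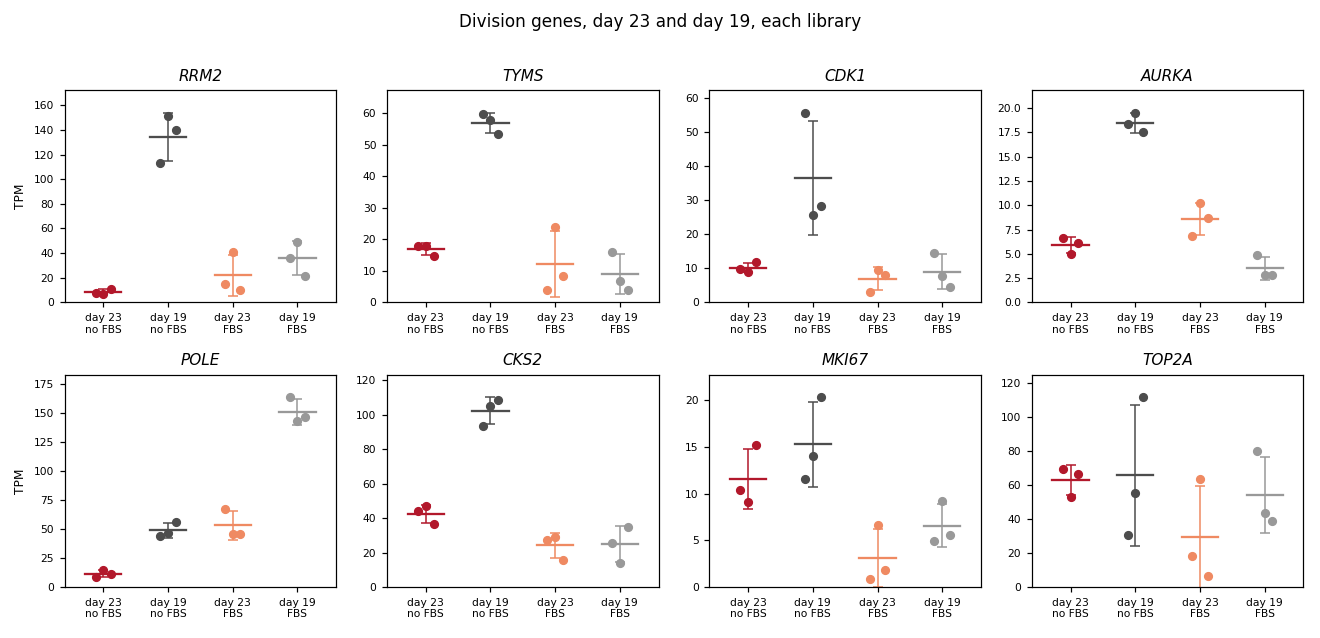
TPM of 8 division genes (vertical axes, linear from 0) in each library, in the order day 23 without FBS, day 19 without FBS, day 23 with FBS and day 19 with FBS. Dots are libraries, lines the means of 3 and bars the SD. RRM2, TYMS, POLE, AURKA and CKS2 separate the days without FBS, while MKI67 and TOP2A overlap.

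Many G2/M genes carry the same short elements upstream of their start, the CCAAT box (letters CCAAT) and the cell cycle homology region (CHR, letters TTTGAA), so the 120 bases before the start are shown for a pair of genes that fell and for TOP2A, which was not called. Capitals mark matches to either motif on either strand; sequences are RefSeq's, build GRCh38.p14, written 5′ to 3′ on the strand of the gene.
CKS2, chr9:89311075-89311194, plus strand: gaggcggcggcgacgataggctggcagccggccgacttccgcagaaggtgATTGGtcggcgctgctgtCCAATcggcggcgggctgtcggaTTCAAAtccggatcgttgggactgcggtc
CKS1B, chr1:154974561-154974680, plus strand: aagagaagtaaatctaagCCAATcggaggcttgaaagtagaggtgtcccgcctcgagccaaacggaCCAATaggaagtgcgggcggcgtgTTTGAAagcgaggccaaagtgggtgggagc
TOP2A, chr17:40417897-40418016, minus strand: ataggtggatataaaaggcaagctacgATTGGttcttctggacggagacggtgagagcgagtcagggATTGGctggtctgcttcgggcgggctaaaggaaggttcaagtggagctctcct

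All 3 stretches held 2 CCAAT boxes. The CKS2 and CKS1B stretches held the CHR letters TTTGAA 24 and 25 bases before the start, on either strand, and the TOP2A stretch did not. Only these exact letters were searched, so a CHR with other letters would have been missed, in TOP2A and in the counts below. Within 250 bases upstream, a CCAAT box lay in 14 of 14 G2/M genes that fell and had an entry, in 28 of 44 (63.6%) that were not called, and in 33% of all 27305 promoters. A CHR lay in 4 of 14 (28.6%) that fell, in 27 of 44 (61.4%) that were not called, and in 13.6% of all promoters. The letters thus marked members of the list on either side of the threshold, and a match is a description and no proof of a site in use.

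Regulators of division and self-renewal had few calls. Of 32 members 30 were tested, with 2 higher and 5 lower, beside 6.45% of all genes higher and 9.03% lower. The lower count was 2 without day 19 replicate 1 or 2, and 3 without day 23 replicate 2 or 3, and the higher count was 1 without day 19 replicate 2 or any 1 of the day 23 libraries. RB1, which holds back entry into S phase, averaged 8.96 ± 1.13 TPM at day 23 and 51 ± 30.5 TPM at day 19 (-2.22, adjusted p = 0.00794). ID2, an inhibitor of helix-loop-helix factors, fell by 1.57 to 82.2 ± 14.7 TPM at day 23, against 245 ± 21.2 TPM at day 19 (adjusted p = 0.000924). MYC, a driver of growth, averaged 6.71 ± 1.16 TPM at day 23 and 18.2 ± 5.14 TPM at day 19 (-1.29, adjusted p = 0.0243). Its adjusted p was 0.074 and 0.109 without day 19 replicate 1 and 2, and 0.0705 and 0.0716 without day 23 replicate 2 and 3. CDKN1A, the p21 cell cycle inhibitor, fell by 0.87 (adjusted p = 0.0186), with an adjusted p of 0.0546 to 0.0774 without day 19 replicate 1 or 2 or day 23 replicate 2 or 3. BHLHE41, a transcription factor, was at 32.93, 37.71 and 50.62 TPM at day 23, against 6.67, 8.62 and 9.29 TPM at day 19 (2.16 ± 0.27, adjusted p = 0.00156). KLF2 and KLF4, low in all 6 libraries, were not called (-0.30, adjusted p = 0.736, and 0.65, adjusted p = 0.32), and KLF2 had a change of 0.22 without day 19 replicate 3.

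Many genes of monocytes rose. Of 20 members 15 were tested, with 9 higher, 1 lower and 5 not called, beside 6.45% of all genes higher, and a median change of 1.44. The 1 lower was not called in any fit that left out a library. S100A8 (ENSG00000143546, GRCh38.p14 chr1:153390032-153422583) was at 311.54, 338.86 and 405.53 TPM at day 23, against 15.33, 20.05 and 10.71 TPM at day 19 (4.46 ± 0.24, adjusted p = 2.71e-05). Its partner in calprotectin, S100A9, was at 4222.87, 4110.9 and 4488.88 TPM at day 23, against 1753.9, 1725.69 and 1827.7 TPM at day 19 (1.27 ± 0.07, adjusted p = 2.74e-05). S100A9 was the more abundant of the pair on both days, and S100A8 changed by more on the log2 scale. RETN, resistin, a hormone that human monocytes secrete, was at 7109.77, 7370.91 and 7470.16 TPM at day 23, against 1129.72, 1488.65 and 1720.35 TPM at day 19 (2.36 ± 0.14, adjusted p = 2.74e-05). AQP9, a glycerol channel, was at 27.05, 19.93 and 22.46 TPM at day 23, against 0.36, 2.18 and 1.34 TPM at day 19 (3.47 ± 0.38, adjusted p = 0.000909). None of these genes overlapped between the days. FCN1, ficolin, a classical monocyte gene, averaged 118 ± 8.29 TPM at day 23 and 42.1 ± 8.19 TPM at day 19 (1.48, adjusted p = 0.00203), and was not called in a fit of days 16 to 23 with and without FBS (adjusted p = 0.132). CD14, the endotoxin co-receptor, had a change of 0.26 that was not called (adjusted p = 0.119) but was after scaling (0.45, adjusted p = 0.0311).

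Chemokines were called in the higher direction alone. Of 36 members 21 were tested, with 10 higher, 0 lower and 11 not called (4 of the 21 had changes below 0), beside 6.45% of all genes higher and 9.03% lower, a median change of 1.03, and 10 listed at 0 throughout. At an unadjusted p under 0.05 in limma 14 were higher and 1 lower, and after scaling 12 were called higher and 0 lower. Members that passed the filter only through day 23, such as CCL7, had to be higher there, so the direction was partly set by the filter. CCL20 (ENSG00000115009, GRCh38.p14 chr2:227813842-227817556), the ligand of CCR6, was at 25.72, 35.21 and 31.55 TPM at day 23, against 2.13, 2.15 and 2.39 TPM at day 19 (3.29 ± 0.28, adjusted p = 0.000223). CXCL8, which draws neutrophils, was at 321.59, 270.45 and 310.95 TPM at day 23, against 70.12, 80.87 and 51.15 TPM at day 19 (2.16 ± 0.19, adjusted p = 0.000322). Both stood clear of day 19 in every library. CCL7, a monocyte attractant, was at 9.67, 16.11 and 22.74 TPM at day 23, against 0, 1.7 and 0.47 TPM at day 19 (3.36 ± 0.48, adjusted p = 0.00299). CCL3 and CCL4, chemokines that draw monocytes and lymphocytes, averaged 2640 ± 138 and 1324 ± 67.4 TPM at day 23, against 1232 ± 140 and 615 ± 80.9 TPM at day 19, changes of 1.10 and 1.11. Reads of CCL3 and CCL4 can be shared with the near-identical CCL3L1 and CCL4L2, so how much each copy gave is uncertain. CCL5 rose by 1.52 to 16.3 ± 2.66 TPM at day 23, against 5.07 ± 1.2 TPM at day 19. CXCL1, a close relative of CXCL8 in action, rose by 1.03 (adjusted p = 0.0147), with an adjusted p of 0.0638 without day 19 replicate 2, 0.0589 without day 23 replicate 1 and 0.0524 without day 23 replicate 3. CCL2, the main monocyte attractant, was at 2865.64, 2840.13 and 2935.23 TPM at day 23, against 3556.02, 3047.7 and 3170.57 TPM at day 19 and was not called (-0.17, adjusted p = 0.168), and its change was 0.02 after scaling.

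NF-kB is the factor best known to switch these chemokines on, and a strict form of its site was searched, with the letters GGAATTTCC on either strand. It lay in 2 of 6 chemokine genes that rose and had an entry, in 4 of 9 that were not called, and in 0.428% of all promoters. The pair that rose with a match is shown for the 120 bases before the start (RefSeq, GRCh38.p14), with the match in capitals.
CXCL8, chr4:73740449-73740568, plus strand: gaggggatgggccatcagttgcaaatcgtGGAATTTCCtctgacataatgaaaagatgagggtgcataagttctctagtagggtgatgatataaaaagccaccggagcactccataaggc
CXCL1, chr4:73869273-73869392, plus strand: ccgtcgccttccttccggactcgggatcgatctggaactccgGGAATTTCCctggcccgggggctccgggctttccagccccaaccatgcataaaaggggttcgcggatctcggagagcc

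The match ended 83 and 70 bases before the start of CXCL8 and CXCL1. Cytokines outside the chemokine family were mixed: of 44 inflammatory genes 36 were tested, with 6 higher and 4 lower, beside 6.45% and 9.03% of all genes. The higher count was 2 without day 19 replicate 2, day 23 replicate 1 or day 23 replicate 3, and 3 without day 23 replicate 2, and the lower count was 2 without day 19 replicate 1 or 2 or day 23 replicate 2 or 3. IL1B averaged 476 ± 32.9 TPM at day 23 and 290 ± 67.6 TPM at day 19 (0.73, adjusted p = 0.021), with an adjusted p of 0.0741 to 0.0832 without day 19 replicate 2 or day 23 replicate 1 or 3. IL6 was not called (0.72, adjusted p = 0.253), and its libraries overlapped. OSM, a cytokine of the IL6 family, was at 5.1, 6.97 and 3.8 TPM at day 23, against 55.06, 30.82 and 15.02 TPM at day 19 (-2.31 ± 0.45, adjusted p = 0.0106). HBEGF, an epidermal growth factor receptor ligand, fell by 1.56 to 14.8 ± 1.07 TPM at day 23, against 45.9 ± 7.16 TPM at day 19 (adjusted p = 0.00305).

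**Figure D3:**
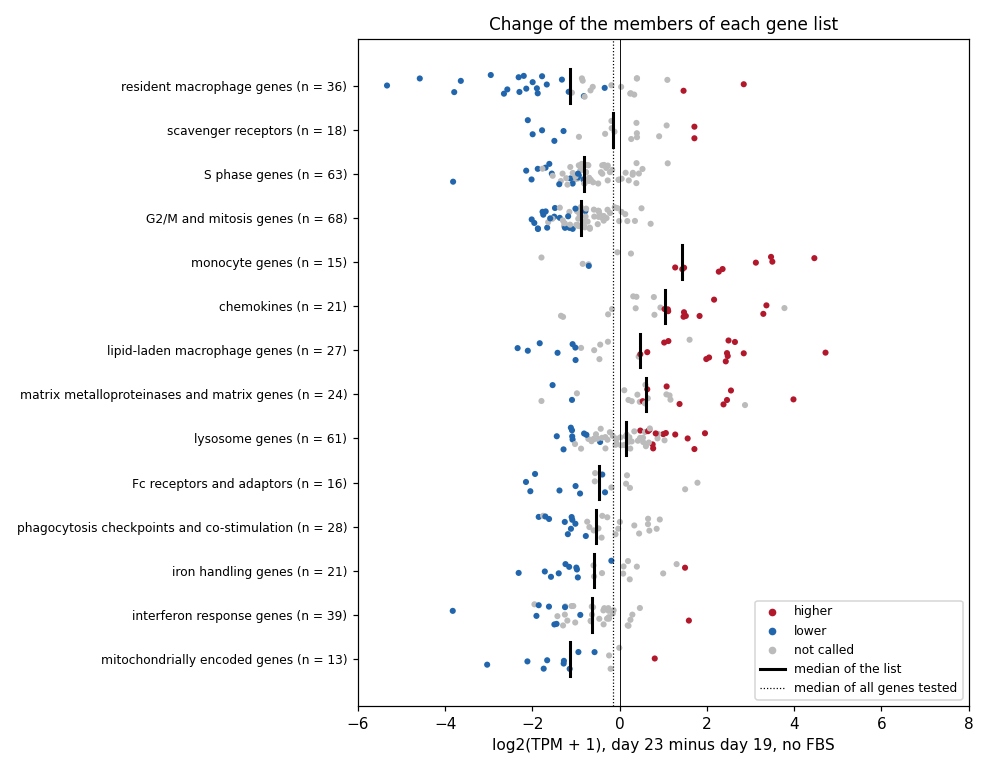
Change of each tested member (dots; horizontal axis, log2(TPM + 1), day 23 minus day 19 without FBS) for 14 gene lists, with a black bar at the median of a list and a dotted line at the median of all genes. Monocyte genes and chemokines lie mostly right of the line, resident, S phase, G2/M and mitochondrially encoded genes mostly left.

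Genes of lipid-laden macrophages, the cells of fatty plaques and fat tissue, were called in both directions. All 27 members were tested, with 13 higher, 7 lower and 7 not called, beside 6.45% of all genes higher and 9.03% lower. Their median change was 0.47. APOC1, an apolipoprotein encoded beside APOE, was at 353.04, 408.46 and 427.93 TPM at day 23, against 71.1, 142.09 and 84.06 TPM at day 19 (2.05 ± 0.24, adjusted p = 0.00128). LPL, lipoprotein lipase, averaged 32.2 ± 9.67 TPM at day 23 and 5.34 ± 3.29 TPM at day 19 (2.48, adjusted p = 0.00525). CHIT1, a chitinase of Gaucher cells, was at 28.35, 54.47 and 21.9 TPM at day 23, against 0, 0 and 1.04 TPM at day 19 (4.72 ± 0.45, adjusted p = 0.000444). CAPG, an actin-capping protein, was at 2083.36, 1887.6 and 2143.26 TPM at day 23, against 525.66, 474.67 and 541.81 TPM at day 19 (1.99 ± 0.10, adjusted p = 1.55e-05). On the other side stood TREM2, the lipid receptor that gives these cells their usual name. It was at 220.85, 208.42 and 193.13 TPM at day 23, against 467.76, 412.76 and 380.02 TPM at day 19 (-1.01 ± 0.13, adjusted p = 0.00201). LGALS3, galectin-3, fell by 1.02 to 56.8 ± 2.38 TPM at day 23, against 117 ± 17.7 TPM at day 19. PLTP, which transfers phospholipid between lipoproteins, fell by 1.43 to 122 ± 24.2 TPM at day 23, against 327 ± 30.6 TPM at day 19.

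Genes of matrix and its enzymes were more often higher than lower. Of 33 members 24 were tested, with 8 higher and 2 lower, beside 6.45% and 9.03% of all genes. The higher count was 5 without day 19 replicate 2 or day 23 replicate 1, and the lower count 1 in every omission but that of day 19 replicate 3. MMP9, a gelatinase, was at 863.46, 898.36 and 876.74 TPM at day 23, against 190.84, 136.1 and 154.73 TPM at day 19 (2.46 ± 0.14, adjusted p = 2.97e-05). FN1, fibronectin, was at 13.84, 18.47 and 14.51 TPM at day 23, against 0, 0 and 0.13 TPM at day 19 (3.98 ± 0.36, adjusted p = 0.000322). TIMP1, an inhibitor of these proteases, averaged 1527 ± 88.7 TPM at day 23 and 597 ± 120 TPM at day 19 (1.37, adjusted p = 0.00067). All 3 were apart from day 19 in every library. TGFBI, a matrix protein induced by TGF-beta, went the other way, with 142 ± 19 TPM at day 23 and 415 ± 52.4 TPM at day 19 (-1.54, adjusted p = 0.00067). SPP1, osteopontin, was among the most abundant genes, with 11678.73, 9896.48 and 10207.2 TPM at day 23, against 9194.15, 6383.49 and 5402.61 TPM at day 19 (0.63, adjusted p = 0.0347). The call on SPP1 ended without day 19 replicate 2 or 3 or any 1 of the day 23 libraries (adjusted p 0.07 to 0.115).

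Lysosome genes were also called in both directions, with 12 higher, 9 lower and 40 not called of 61 tested among 64. Over all genes 6.45% were higher and 9.03% lower. After scaling 20 lysosome genes were higher and 7 lower, beside 8.31% and 6.91% of all genes. The lower count was 4 without day 19 replicate 2, day 23 replicate 2 or day 23 replicate 3. CTSZ, a carboxypeptidase, averaged 62.1 ± 12.4 TPM at day 23 and 15.1 ± 1.63 TPM at day 19 (1.96, adjusted p = 0.00132). The membrane proteins LAMP1 and CD63 averaged 41.4 ± 9.05 and 2577 ± 402 TPM at day 23, against 13.4 ± 3.33 and 1279 ± 31.4 TPM at day 19 (1.56 and 1.0). MAN2B1, a mannosidase, rose by 1.27 (adjusted p = 0.00441). GUSB, beta-glucuronidase, was lower at 17.1 ± 2.91 TPM at day 23 and 48.2 ± 7.65 TPM at day 19 (-1.44, adjusted p = 0.0056). CTSB, cathepsin B, was at 1182.93, 1190.26 and 1236.43 TPM at day 23, against 3575.66, 2528.65 and 1822.24 TPM at day 19 (-1.08, adjusted p = 0.00909), and was not called without the intensity trend (adjusted p = 0.0715).

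Some receptors that couple to Fc and inhibitory signals fell. Of 17 Fc receptors and adaptors 16 were tested, with 0 higher (1 at an unadjusted p under 0.05 in limma, 1 called after scaling), 8 lower and 8 not called, beside 9.03% of all genes lower. The lower count was 5 without day 19 replicate 2, and the higher count 1 without day 23 replicate 3. FCGR2A, an activating IgG receptor, was at 36.93, 32.5 and 37.83 TPM at day 23, against 237.51, 162.8 and 109.09 TPM at day 19 (-2.15 ± 0.27, adjusted p = 0.00169). FCGR2C is a near-identical copy, so reads of the pair may have been split. The signal adaptors TYROBP and FCER1G, both abundant, changed little: TYROBP averaged 3179 ± 31.3 TPM at day 23 and 4018 ± 190 TPM at day 19 (-0.34, adjusted p = 0.0116), and FCER1G 2976 ± 82.3 TPM at day 23 and 3927 ± 192 TPM at day 19 (-0.40, adjusted p = 0.00663). Scaling ended both calls (-0.15, adjusted p = 0.461, and -0.21, adjusted p = 0.176), and TYROBP was not called without day 19 replicate 2 either (adjusted p = 0.0661). Of 34 phagocytosis checkpoints and co-stimulatory genes 28 were tested, with 0 higher (3 at an unadjusted p under 0.05 in limma, 2 called after scaling), 10 lower and 18 not called. Over all genes 6.45% were higher and 9.03% lower. With 1 library left out the lower count was 7 to 10, and without day 19 replicate 1 the higher count was 1. SIGLEC1, the sialic acid receptor CD169, averaged 6.31 ± 1.6 TPM at day 23 and 25.3 ± 3.75 TPM at day 19 (-1.86, adjusted p = 0.00401). LILRB5 and VSIR, inhibitory receptors, fell by 1.71 and 1.19 to 12.7 ± 2.91 and 32.8 ± 2.38 TPM at day 23, against 42.9 ± 4.34 and 77.1 ± 16.5 TPM at day 19. LY86, the partner of the Toll-like receptor relative CD180, was at 20.72, 12.4 and 16.99 TPM at day 23, against 107.64, 93.79 and 80.88 TPM at day 19 (-2.44 ± 0.24, adjusted p = 0.000542).

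Iron handling genes were called lower in 10 of 21 tested among 27, with 1 higher, beside 9.03% of all genes lower and 6.45% higher. The lower count was 6 after scaling, 6 without day 19 replicate 1 and 5 without day 19 replicate 2. The higher count was 2 without day 19 replicate 1 or 3, and 0 without day 19 replicate 2 or day 23 replicate 1 or 2. BLVRB, a biliverdin reductase of the haem breakdown route, was at 514.78, 526.23 and 503 TPM at day 23, against 1515.75, 1576.43 and 1516.35 TPM at day 19 (-1.58 ± 0.09, adjusted p = 2.74e-05). BLVRA, which acts at the same step, was at 24.68, 26.41 and 26.25 TPM at day 23, against 90.36, 91.76 and 79.49 TPM at day 19 (-1.72 ± 0.18, adjusted p = 0.00079). Replicates of a day were close in both genes and the days did not overlap. FTL, the ferritin light chain, alone held 68191 ± 852 TPM at day 23 and 77853 ± 727 TPM at day 19 (-0.19, adjusted p = 0.00452), but scaling removed the change (adjusted p = 0.992), and its many pseudogenes make the level uncertain. FTH1, the heavy chain, was not called (0.08, adjusted p = 0.687), and its change was -0.02 without day 19 replicate 3.

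Transcripts of the mitochondrial genome were lower at day 23, where they held 4.24 to 4.96% of TPM, against 6.43 to 7.97% at day 19. All 13 mitochondrially encoded genes were tested, with 1 higher, 9 lower and 3 not called, counts that were the same after scaling. Over all genes 6.45% were higher and 9.03% lower, and 8.31% and 6.91% after scaling. MT-ATP8, an ATP synthase subunit, was at 290.04, 271.77 and 144.68 TPM at day 23, against 2730.37, 1791.5 and 1311.62 TPM at day 19 (-3.04 ± 0.31, adjusted p = 0.000625). MT-ND5, of complex I, averaged 364 ± 47.9 TPM at day 23 and 1610 ± 457 TPM at day 19 (-2.12, adjusted p = 0.000331). MT-CYB, of complex III, averaged 1573 ± 218 TPM at day 23 and 5120 ± 1654 TPM at day 19 (-1.66, adjusted p = 0.00132). MT-ND4 and MT-ND2 fell by 1.29 and 0.95. MT-ND3 was the exception, with 7593.29, 7232.06 and 7383.5 TPM at day 23, against 3782.9, 4331.8 and 4653.91 TPM at day 19 (0.80, adjusted p = 0.000598), and was not called without the intensity trend (adjusted p = 0.0681). Copies of mitochondrial genes in the nuclear genome make these levels uncertain where reads map to both.

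Immediate early genes and transcription factors showed single large changes rather than a shared one. Of 33 immediate early genes 30 were tested, with 3 higher and 6 lower, beside 6.45% and 9.03% of all genes. Lower calls numbered 3 without day 19 replicate 1 or 2 or day 23 replicate 1 or 2, and 3 after scaling. FOSB and JUND, subunits of the AP-1 factor, averaged 21.4 ± 5.1 and 23.4 ± 4.09 TPM at day 23, against 2.41 ± 1.53 and 3.53 ± 1.94 TPM at day 19 (2.79, adjusted p = 0.00302, and 2.50, adjusted p = 0.00303). FOS, another AP-1 member, fell by 1.53 to 156 ± 16.9 TPM at day 23, against 471 ± 164 TPM at day 19 (adjusted p = 0.00441). ZFP36L1, which marks mRNAs for decay, was at 90.57, 84.14 and 79.05 TPM at day 23, against 909.43, 799.47 and 647.92 TPM at day 19 (-3.19 ± 0.16, adjusted p = 1.47e-05). Its relative ZFP36, which acts on cytokine mRNAs, fell by 2.47 to 20.5 ± 5.84 TPM at day 23, against 117 ± 23.1 TPM at day 19. CEBPB, a factor of inflammatory myeloid cells, was at 133.74, 92.39 and 113.63 TPM at day 23, against 10.43, 21.48 and 44.75 TPM at day 19 (2.31 ± 0.44, adjusted p = 0.00952). CEBPA fell by 2.02 to 2.02 ± 1.4 TPM at day 23, against 10.7 ± 3.76 TPM at day 19 (adjusted p = 0.0198), with an adjusted p of 0.0505 to 0.0911 without day 19 replicate 2 or 3 or day 23 replicate 2 or 3. IRF8 fell by 1.39 (adjusted p = 0.0404), with an adjusted p of 0.0763 to 0.109 without day 19 replicate 1 or 2 or any 1 of the day 23 libraries. SPI1, the master factor of myeloid cells, and CSF1R, the receptor for M-CSF, were not called (-0.41, adjusted p = 0.294, and -0.60, adjusted p = 0.083).

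Interferon response genes were called lower in 8 of 39 tested among 48, with 1 higher, beside 9.03% of all genes lower and 6.45% higher. The lower count was 5 without day 19 replicate 1 or day 23 replicate 1, 3 without day 19 replicate 2 and 4 without day 23 replicate 3, and the higher count was 0 in every omission but that of day 19 replicate 1. IFI27, an interferon-induced mitochondrial protein, was listed at 0 in all 3 day 23 libraries, against 13.97, 11.85 and 13.88 TPM at day 19 (adjusted p = 0.000409). IFI35 fell by 1.5 to 17.4 ± 1.89 TPM at day 23, against 51.6 ± 10.8 TPM at day 19. Of 43 glycolysis and hypoxia genes 38 were tested, with 4 higher and 8 lower, beside 6.45% and 9.03% of all genes, and the lower count was 3 without day 19 replicate 1, day 19 replicate 2 or day 23 replicate 3, and 5 without day 23 replicate 1 or 2. The higher count was 1 without day 19 replicate 2 or day 23 replicate 3, and 0 without day 23 replicate 1.

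The largest changes of all were partly outside genes annotated as protein-coding. Among the 15 largest increases past the threshold, in genes of at least 5 TPM whose libraries did not overlap, 3 were annotated protein-coding, and among the 15 largest decreases 9 were. Several of the rest, such as AL139099.4 and AC009086.2, bore names of genomic clones and had no gene type matched, so whether they code for protein is not known here. EMP1, a membrane protein of epithelium, was at 63.31, 66.21 and 54.93 TPM at day 23, against 0.27, 1.84 and 0.15 TPM at day 19 (5.28 ± 0.39, adjusted p = 9.85e-05). MRNIP, a DNA repair factor, was at 213.68, 174.81 and 247.12 TPM at day 23, against 2.21, 9.6 and 3.68 TPM at day 19 (5.28 ± 0.40, adjusted p = 0.000134). WFDC21P, a transcribed pseudogene, was at 482.41, 366.55 and 340.77 TPM at day 23, against 5.57, 0 and 5.04 TPM at day 19 (6.85 ± 0.63, adjusted p = 0.000367), and its change was 5.96 without day 19 replicate 2. The near-identical RN7SL1 and RN7SL2, RNAs of the signal recognition particle, moved in opposite directions. RN7SL2 averaged 157 ± 43 TPM at day 23 and 1.14 ± 1.97 TPM at day 19 (6.56, and 7.27 without day 19 replicate 3), while RN7SL1 averaged 0.69 ± 1.2 TPM at day 23 and 99.4 ± 21.2 TPM at day 19 (-6.09), so which copy took the reads is uncertain. FLNA, an actin crosslinker, was at 893.91, 890.69 and 1081.3 TPM at day 23, against 54.24, 78.24 and 95.86 TPM at day 19 (3.66 ± 0.21, adjusted p = 2.74e-05). TUBA1B, an alpha-tubulin with close copies, was at 82.68, 79.04 and 113.07 TPM at day 23, against 1724.62, 1255.35 and 799.5 TPM at day 19 (-3.72 ± 0.26, adjusted p = 8.34e-05). ACTB, beta-actin, was at 6664.36, 6397.51 and 7032.34 TPM at day 23, against 18204.38, 11450.28 and 8935.08 TPM at day 19 (-0.88, adjusted p = 0.0237), with an adjusted p of 0.0619 to 0.0723 without day 19 replicate 2 or any 1 of the day 23 libraries.

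With FBS the same 4 days brought fewer calls. The make-up of the libraries moved with this step: the 3 clone-named genes held 15.7 to 20.1% of TPM at day 23 with FBS and 24.1 to 32.3% at day 19 with FBS, and protein-coding genes 69 to 72.3% and 58.7 to 64.3%. Its part in the step with FBS and in the difference of steps was not tested. Of 13291 genes tested, 426 (3.21%) rose and 399 (3.00%) fell, 6.21% in either direction. Calls higher were 220, 155 and 161 without replicate 1, 2 and 3 of day 23 with FBS. Calls lower were 231 and 260 without replicate 1 and 3 of day 19 with FBS, and 223, 180 and 177 without replicate 1, 2 and 3 of day 23 with FBS. The step itself, tested as the difference between both steps over 13205 genes, was higher without FBS for 840 (6.36%) and lower for 1275 (9.66%), 16% in either direction, and after scaling for 1059 and 1010. Of 11724 genes tested in both, 69 rose in both (8.91% of the 774 higher without FBS and 16.4% of the 421 higher with FBS), and 44 fell in both (3.95% of 1114 and 11.9% of 369). Calls went opposite ways in 49 genes higher without and lower with FBS (6.33% and 13.3%) and in 104 lower without and higher with FBS (9.34% and 24.7%).

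Part of the resident list fell with FBS too. Of 34 members tested there 15 fell, 4 rose and 15 were not called, and 10 fell in both media. The step was lower without FBS for 16 of 36, higher for 6 and not called as different for 14. LYVE1 averaged 29.3 TPM at day 23 with FBS and 101 TPM at day 19 with FBS, a change of -1.75, so the step without FBS was lower by a log2 difference of -3.58 (adjusted p = 0.000233). F13A1 averaged 171 TPM at day 23 with FBS and 620 TPM at day 19 with FBS (-1.85), a difference of steps of -2.74 (adjusted p = 6.66e-05). RNASE1, which fell without FBS, was at 8448 TPM at day 23 with FBS and 8558 TPM at day 19 with FBS (-0.02, adjusted p = 0.899), a difference of -2.28 (adjusted p = 1.61e-07). C1QC was not called with FBS (0.15, adjusted p = 0.341), a difference of -2.05. APOE, higher without FBS, was not called with FBS (-0.12, adjusted p = 0.815), a difference of 2.97 (adjusted p = 7.67e-05). STAB1 fell with FBS, to 5318 TPM at day 23 against 11954 TPM at day 19 (-1.17, adjusted p = 0.000309), a difference of 1.57. C1QB moved alike in both media (-1.33 without and -1.26 with FBS, difference -0.06, adjusted p = 0.873), though no difference shown is not proof of equal steps. Each difference of steps called here was called in every alternative run for it.

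Some genes were called in opposite directions. Of the mitochondrially encoded genes 7 rose and 1 fell with FBS, 7 were called opposite ways, and the step was lower without FBS for 11 of 13. Of the 11724 genes tested in both media, 153 were called opposite ways. The step was lower without FBS for 9.66% of all genes. MT-ATP8 rose with FBS to 1405 TPM at day 23, against 250 TPM at day 19 (2.48, adjusted p = 6.92e-05), a difference of -5.52. FCGR2A rose with FBS to 515 TPM at day 23, against 244 TPM at day 19 (1.08, adjusted p = 0.00683), a difference of -3.23, and 5 Fc receptors and adaptors were called opposite ways. TREM2 rose with FBS to 713 TPM at day 23, against 258 TPM at day 19 (1.47, adjusted p = 0.000377), a difference of -2.48. CD68 rose with FBS by 0.68 (adjusted p = 0.00693), a difference of -1.97. CTSB rose with FBS by 1.35 (adjusted p = 5.45e-05), a difference of -2.43. MYC rose with FBS to 13.9 TPM at day 23, against 1.29 TPM at day 19 (2.82, adjusted p = 0.00928, and 0.0634 without replicate 3 of day 23 with FBS), a difference of -4.11. FOSB fell with FBS to 5.97 TPM at day 23, against 220 TPM at day 19 (-5.06, adjusted p = 3.15e-05), a difference of 7.84. MRNIP fell with FBS (-2.34, adjusted p = 0.00904), a difference of 7.62.

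**Figure D4:**
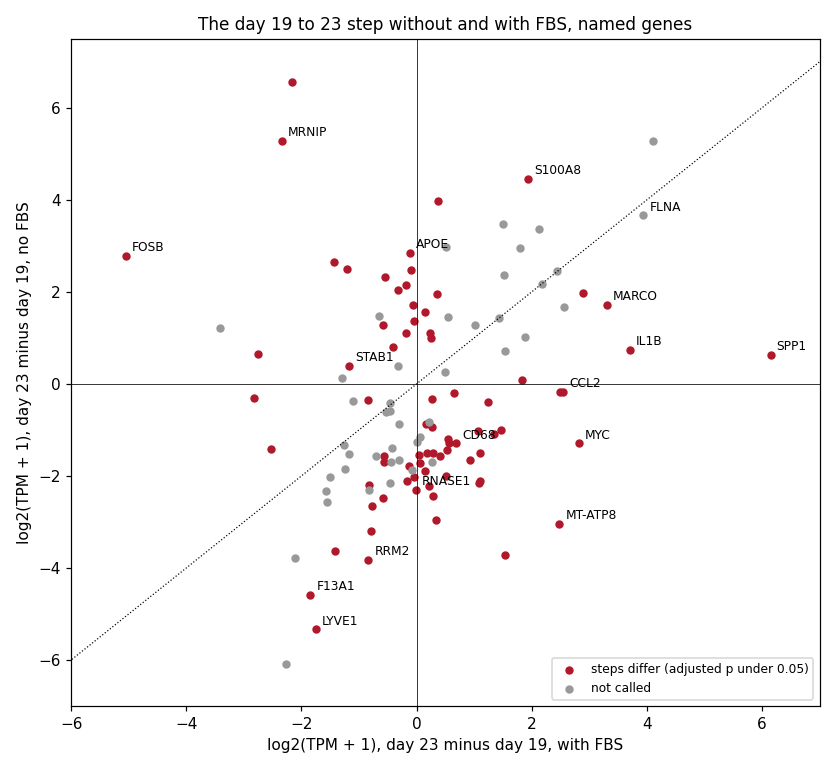
Day 23 minus day 19 of the named genes without FBS (vertical axis) and with FBS (horizontal axis), both in log2(TPM + 1); each dot is 1 of 120 genes, red where the steps differ at adjusted p under 0.05 (76 genes) and grey where they do not (44). The dotted diagonal marks equal steps; SPP1 lies far below it and MRNIP and FOSB far above.

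Other genes rose in both media. S100A8 rose with FBS to 171 TPM at day 23, against 48 TPM at day 19 (1.93, adjusted p = 0.00838), less than without FBS (difference 2.53, adjusted p = 0.00166). CXCL8 rose by 2.19 with FBS (adjusted p = 0.02, and 0.0803 and 0.09 without replicate 2 and 3 of day 23 with FBS), with a difference of -0.02 (adjusted p = 0.987). MMP9 rose by 2.45 with FBS (adjusted p = 0.00634), with a difference of 0.01 (adjusted p = 0.991). FLNA rose by 3.94 with FBS (adjusted p = 0.000695), with a difference of -0.28 (adjusted p = 0.752). MARCO rose with FBS at a far lower level, to 61 TPM at day 23, against 5.2 TPM at day 19 (3.31, adjusted p = 0.00311). SPP1 rose with FBS to 6757 TPM at day 23, against 103 TPM at day 19 (6.15, adjusted p = 2.39e-05), a difference of -5.52. CCL2, not called without FBS, rose with FBS by 2.55 (adjusted p = 3.63e-05), a difference of -2.72. Division genes hardly passed with FBS, where 1 of 54 S phase and 1 of 60 G2/M genes tested fell and 0 rose. The steps of RRM2 differed (-2.98, adjusted p = 0.00432), as did those of 6 of 61 S phase genes in all and 1 of 65 G2/M genes. Each was lower without FBS, beside 9.66% of all genes. The S phase count was thus near the share over all genes and the G2/M count below it. CCL20, which rose without FBS, was listed at 0 in all 6 libraries with FBS.

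**Figure D5:**
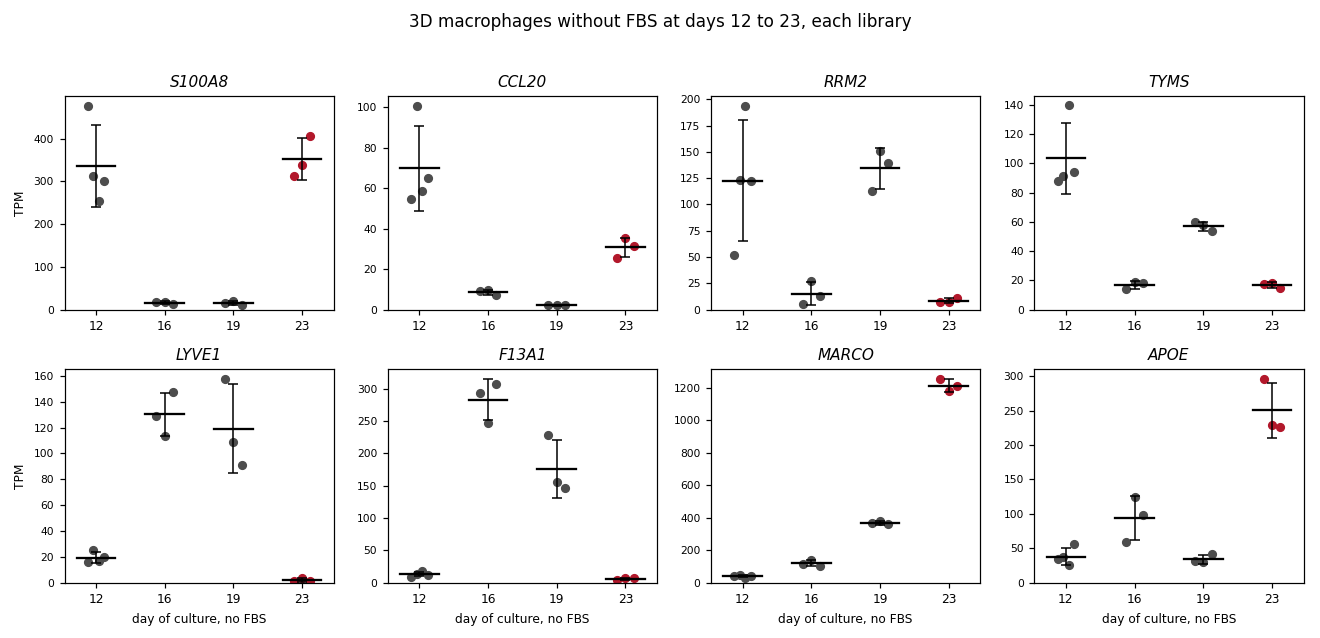
TPM of 8 genes (vertical axes, linear from 0) at day 12, 16, 19 and 23 of the 3D culture without FBS (horizontal axis, days). Dots are libraries (4 at day 12, 3 at each later day), short horizontal lines the means of each day and bars the SD. S100A8 and CCL20 are low at days 16 and 19 and higher at days 12 and 23, while LYVE1 and F13A1 are high at days 16 and 19 only.

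Set among the earlier days, several day 23 levels were nearer to day 12 than to day 19, as the plot of 8 genes by day shows. These levels are descriptions, with no test. S100A8 averaged 336 TPM at day 12, 16.5 at day 16, 15.4 at day 19 and 352 at day 23. CCL20 averaged 69.8 TPM at day 12, 8.73 at day 16, 2.22 at day 19 and 30.8 at day 23, which in TPM was nearer to day 19. F13A1 averaged 13.3 TPM at day 12, 283 at day 16, 177 at day 19 and 6.36 at day 23, and LYVE1 19.5, 130, 119 and 2.10 TPM at the same days. In all 4 genes the day 23 mean lay farther from the day 19 mean than the day 16 mean did. Division genes had another course: RRM2 averaged 123 TPM at day 12, 15.3 at day 16, 134 at day 19 and 8.67 at day 23, and TYMS 103, 17.1, 57.1 and 16.9 TPM. MARCO averaged 39.4, 121, 369 and 1213 TPM, higher at each later day.

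Markers of other cell types were few. Of 14 granulocyte markers 4 were tested with 0 calls, 9 (MPO and ELANE among them) were listed at 0 in all 6 libraries, (1 marker was higher at an unadjusted p under 0.05 in limma), and the sums were 29.29 to 56.15 TPM at day 23 and 33.99 to 88.94 TPM at day 19. The 14 mast cell, basophil and eosinophil markers summed to 75.38 to 117.2 TPM at day 23 and 8.54 to 875.4 TPM at day 19, the top value in day 19 replicate 1, with 0 calls in 7 tested (0 unadjusted) and 1 called higher without that library. Dendritic cell markers had 0 calls in 7 tested of 18 (1 lower unadjusted, and 1 called lower without day 23 replicate 3), with sums of 34.95 to 41.73 TPM at day 23 and 31.86 to 59.33 TPM at day 19. Osteoclast markers had 3 higher and 1 lower in 8 tested of 13, beside 6.45% and 9.03% of all genes. Among those higher were MMP9 and DCSTAMP, a fusion protein (2.99, adjusted p = 0.00735 in limma). Their sums were 1064.3 to 1101.1 TPM at day 23 and 293.6 to 389.7 TPM at day 19. MMP9 alone held most of the day 23 sum and of the difference between the days. Elsewhere single markers moved: NKG7, of lymphocyte granules, rose to 160 ± 16.6 TPM at day 23, against 20.1 ± 5.19 TPM at day 19, with CD3E, CD3G, CD2, GNLY and MS4A1 listed at 0. SERPINA1, made by liver and also by monocytes, rose to 183 ± 6.22 TPM at day 23, against 58.7 ± 18.7 TPM at day 19, with ALB, AFP, APOA1 and TTR listed at 0. EGFL7, of endothelium, fell to 24.5 ± 7.28 TPM at day 23, against 125 ± 22.6 TPM at day 19, with KDR, TEK and CLDN5 listed at 0. What part these cells or the lower mitochondrial share played in the changes above was not tested.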

How the data were processed

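Bulk RNA of 6 libraries was compared, 3 of day 23 and 3 of day 19 of the 3D culture without FBS, and 6 libraries of the same days with FBS. RNA was taken up in TRIzol, selected for polyA and made into libraries with SMART-seq2, per the labels' protocols. The authors deposited TPM of 58735 genes, which were used as deposited. The submitters' processing notes name Trim Galore 0.4.4, HISAT2, HTSeq 0.11.1, DESeq2 and builds hg38 and GRCh38 for the whole series. The sources used here do not say which tool computed the TPM. TPM keep no read counts, so the depth behind each value is unknown and no counting interval is given, and few reads may lie behind the lowest values.

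TPM were transformed to log2(TPM + 1), and genes that averaged 1 TPM or more in the libraries fitted were tested with limma 3.58.1 (R 4.3.3, intensity trend), with Benjamini-Hochberg adjustment over all genes of the fit and a threshold of 0.05. The step with FBS was fitted on its own 6 libraries and the difference of steps on all 12. The fit was tested on simulated data first. SDs are over the 3 libraries of a group. No 2 libraries held identical values, and 10 housekeeping genes had 0 values of 0. Named genes are a selection of the 15 largest changes each way, of up to 8 members per list with the lowest adjusted p, and of a fixed set. The members, 52 gene lists and named genes were chosen with earlier results of these data known. Gene names were matched for 58207 identifiers, positions by symbol from RefSeq (GRCh38.p14), and 1546 identifiers repeat a symbol. Promoters are RefSeq's 250 bases before the start. Alternatives left out each library and changed the scaling, pseudocount, filter, trend, weights, block and libraries fitted; 2 of them, which dropped 3 clone-named genes or all but nuclear protein-coding genes, were chosen after seeing the data. Figures were drawn with matplotlib 3.10.9.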

Additional observations from a re-analysis of the deposited data

Results flagged for a closer look

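Day 23 minus day 19 differed between the culture without FBS and the culture with FBS in 2115 of 13205 genes by limma's test of the difference itself, higher without FBS in 840 and lower in 1275. Of the genes named, 80 were among them, and 68 of these were called alike under each alternative. The exceptions were AXL, C1QA, MARCO, KLF2, CCL3, LPL, CD63, TYROBP, BLVRA, FTL, CEBPA and ACTB, each of which was not called under at least 1.

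Among resident and complement genes, the step was lower without FBS by log2 differences of -3.58 for LYVE1, -2.74 for F13A1, -2.23 for SELENOP, -1.87 for FOLR2, -2.28 for RNASE1, -3.29 for HPGDS, -1.66 for MRC1, -1.37 for AXL and -2.05 for C1QC. It was higher by 0.49 for C1QA, 1.57 for STAB1, 2.97 for APOE and 4.08 for CFP. Among scavenger receptors and lysosome genes, the step was lower without FBS by log2 differences of -1.60 for MARCO, -1.95 for CD36, -1.97 for CD68, -2.51 for CD209, -1.78 for COLEC12, -2.68 for MSR1, -1.96 for GUSB and -2.43 for CTSB. Positive differences, a higher step without FBS, were 1.77 for SCARB2, 1.60 for CTSZ, 1.42 for LAMP1, 0.75 for CD63 and 1.85 for MAN2B1. Among genes of division and self-renewal, the step was lower without FBS by log2 differences of -2.98 for RRM2, -2.61 for AURKA, -4.11 for MYC, -1.98 for ID2 and -2.44 for RB1. It was higher by 2.35 for BHLHE41, 2.51 for KLF2 and 3.41 for KLF4. Among alarmins, chemokines and cytokines, the step was lower without FBS by log2 differences of -2.97 for IL1B and -2.72 for CCL2. Differences above 0 were 2.53 for S100A8, 3.29 for CCL20, 0.88 for CCL3 and 1.30 for CCL4. Among lipid and matrix genes, the step was lower without FBS by log2 differences of -0.90 for CAPG, -2.48 for TREM2, -2.08 for LGALS3, -1.57 for TGFBI and -5.52 for SPP1. Positive differences were 2.37 for APOC1, 2.58 for LPL, 4.86 for CHIT1, 1.10 for PLTP, 3.62 for FN1 and 1.42 for TIMP1.

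Among Fc and inhibitory receptors and their adaptors, the step was lower without FBS by log2 differences of -3.23 for FCGR2A, -0.61 for TYROBP, -1.64 for FCER1G, -1.14 for LILRB5, -1.73 for VSIR and -2.74 for LY86. Among iron genes and mitochondrially encoded genes, the step was lower without FBS by log2 differences of -1.77 for BLVRA, -1.01 for BLVRB, -0.84 for FTL, -1.76 for FTH1, -1.21 for MT-ND2, -1.84 for MT-ND4, -3.21 for MT-ND5, -2.59 for MT-CYB and -5.52 for MT-ATP8. It was higher by 1.21 for MT-ND3. Among immediate early, myeloid and interferon genes, the step was lower without FBS by log2 differences of -1.88 for ZFP36, -2.39 for ZFP36L1, -1.97 for CEBPA, -3.83 for IFI27 and -1.69 for IFI35. It was higher by 7.84 for FOSB, 3.72 for JUND and 2.86 for CEBPB. Among the remaining genes, the step was lower without FBS by log2 differences of -5.25 for TUBA1B and -1.05 for ACTB. Differences above 0 were 7.62 for MRNIP, 6.54 for WFDC21P and 8.72 for RN7SL2. IFI27 was listed at 0 in all libraries with FBS and in those of day 23 without FBS, and CCL20 in all libraries with FBS, so their values depend on the pseudocount. How far the lower mitochondrial share at day 23 without FBS, or the lower summed level of macrophage markers there, moved with these differences was not tested.

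1 level stood out within a group of 4. TYMS was at 140 TPM in the day 12 library farthest from the other 3, with a gap of 0.880 of the whole range. Of 8 genes looked at this way it was the single one past Dixon's limit, and chance alone gives about 1 in 20 such groups.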

How the results depend on the processing

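Of 110 named genes called without FBS, 88 kept their call and direction under all 17 alternatives and 22 lost it under at least 1, of which 5 only under settings that left out no library. The number of calls moved more. Without the intensity trend 477 genes were higher and 693 lower without FBS, and 135 and 116 with FBS. A fit of days 12 to 23 gave 1897 lower without FBS. With no filter on low values, 267 were higher and 215 lower with FBS. Leaving out 1 library gave 439 to 811 higher and 456 to 1099 lower without FBS, and 155 to 411 higher and 177 to 272 lower with FBS. Resident genes lower numbered 12 to 21 with 1 library left out. S phase genes lower numbered 23 in the fit of days 12 to 23, 8 each after median-ratio scaling, with no filter and without the trend, and 4 to 9 with 1 library left out. G2/M genes lower numbered 10 after scaling, 8 with no filter, 10 without the trend and 6 to 11 with 1 library left out. The cause of these moves was not tested, beyond the fewer or added libraries and genes that a setting has by construction.

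Changes that turned sign were small and never called. With 1 library left out they ranged without FBS from -0.32 to 0.602 for TOP2A, from -0.733 to 0.216 for KLF2 and from -0.018 to 0.233 for FTH1, and with FBS from -0.056 to 0.010 for RNASE1 and from -0.383 to 0.046 for APOE. After scaling CCL2 was at 0.015 without FBS. Of 695 other list counts, 534 stayed within 1.5 times. Of 22 named steps with FBS 19 were called, and 8 of these lost the call under at least 1 alternative: STAB1, C1QB, FCGR2A, CD68, MRNIP and S100A8 only without the trend, MYC only without 1 library, and CXCL8 under 4. Both alternatives added after seeing the data gave 822 and 740 higher, and 1202 and 1353 lower.

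Replicate numbers are not said to pair the samples. Deviations of same-numbered libraries correlated at -0.005, 0.001 and -0.003 without FBS, which cannot show whether the samples were paired. A replicate block gave 693 higher and 932 lower, with 6 S phase, 14 G2/M and 19 resident genes lower, and ended the calls on TIMD4 and PCNA. Since TPM hold no depth, which low genes were limited by it could not be judged.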
